A study of Schizosaccharomyces pombe with 16 samples.

Results

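The data describe 8 genes of sugar uptake and sugar use in the fission yeast Schizosaccharomyces pombe: the hexose transporter genes ght1, ght2, ght3, ght5, ght6 and ght8, the gluconeogenic gene fbp1 and the invertase gene inv1. They were taken as a list of systematic identifiers, with no threshold on a measured value, and are 8 of the 7022 features in the deposited expression table. Polyadenylated RNA was sequenced from 8 strains that differ in the repeated carboxy-terminal domain (CTD) of the largest RNA polymerase II subunit, with 2 biological replicates of each strain and 16 libraries in all. The control strain, rpb1CTD-WT 1-18, carries the unchanged repeats, and 4 single mutants replace 1 residue of the repeat (Y1F tyrosine by phenylalanine, S2A and S7A a serine by alanine, T4A threonine by alanine). The double mutants Y1F-S7A, S2A-S7A and T4A-S7A join S7A to each of the other changes. Cultures grew in YES, a rich medium of yeast extract plus supplements, at 30 °C. All strains carry ade6, ura4-D18 and leu1–32 markers, and every strain is h- except S2A, which is h+, so that a difference between S2A and WT is also a difference of mating type. Each culture's own density at harvest is not given, and in RNA from whole cultures more cells expressing a gene and more transcript per cell cannot be told apart.

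Glucose enters fission yeast through the Ght proteins, proton-coupled transporters of the plasma membrane that differ in affinity and in the sugars they carry. When glucose is plentiful, signalling through cAMP and protein kinase A and the zinc-finger repressor Scr1 keep genes for poor growth conditions low. Of these, fbp1 (fructose-1,6-bisphosphatase) and inv1 (secreted invertase, which splits sucrose) are the classical reporters, and ght5, the high-affinity transporter that fission yeast needs to divide in low glucose, is also repressed by Scr1.

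Libraries held 18677921 to 31254978 counted reads. As a check of the labels, ura4, which is deleted in all strains, had 0 reads in each of the 16 libraries. The M-factor gene mfm2, a marker of h- cells, was at 0.921 and 1.58 CPM (counts scaled to the library's size, with sizes adjusted by the TMM method) in the 2 S2A libraries. It was at 7.71 to 62.0 CPM in the other 14, as the labelled mating types imply. The other markers looked at did not set S2A apart from all other strains. The M-factor genes mfm1 (0.068 and 0.271 CPM in S2A, 0.594 and 0.258 in WT) and mfm3 (0.41 and 0.41, 0.366 and 0.946) were low throughout. Of the P-cell genes, map3 was at 17.8 and 12.3 in S2A and 20.6 and 17.4 in WT. map2 was at 8.70 and 8.17 in S2A, 6.49 and 8.08 in WT and 10.3 and 11.1 in S2A-S7A. Levels below are in CPM unless stated.

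Because ght5 and ght8 are close copies, the stretches that do and do not separate their reads bear on every value of ght5. Their coding sequences were identical at 1510 of 1638 aligned bases (92.2%), and of all 50-base words of the ght5 gene 29.6% also occurred elsewhere in the genome, all 596 of them in ght8. The longest identical run was 248 bases, at chrIII:213319-213566 on the plus strand of the RefSeq assembly ASM294v3. It is shown because a read wholly inside it fits both genes alike, although in these paired-end libraries its mate may still separate them.
ght5 and ght8: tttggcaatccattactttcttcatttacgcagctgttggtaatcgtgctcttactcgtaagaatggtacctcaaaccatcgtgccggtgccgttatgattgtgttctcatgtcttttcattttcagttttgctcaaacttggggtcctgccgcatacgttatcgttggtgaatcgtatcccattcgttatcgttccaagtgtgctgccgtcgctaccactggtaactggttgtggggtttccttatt
The 90-base coding window in which the 2 genes differ most, by 20 bases in capitals, lies at chrIII:213708-213797 (plus strand) in ght5 and at chrIII:226916-227005 (minus strand) in ght8, and a read here does separate them.
ght5: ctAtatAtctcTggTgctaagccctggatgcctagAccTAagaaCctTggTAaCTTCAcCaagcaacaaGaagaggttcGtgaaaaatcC
ght8: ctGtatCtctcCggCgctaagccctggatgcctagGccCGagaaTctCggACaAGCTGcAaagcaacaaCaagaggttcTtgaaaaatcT
How reads that fit both genes were counted is not given in the sources used here. In a library, ght5 had between 4.30% (WT replicate 1) and 76.4% (T4A-S7A replicate 2) of the ght8 CPM, while ght8 itself differed 1.62-fold between the lowest and the highest strain mean. Of the other members, ght3 shared 11.8% of its words with ght4 and ght1 shared 5.39% with its paralogs, ght6 shared 2.01%, and ght2, fbp1 and inv1 shared none.

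Against WT the member that moved in most mutants was ght5. With 1 edgeR quasi-likelihood fit over all 6420 tested features (two-sided, Benjamini-Hochberg adjustment, called at an adjusted p under 0.05), 1 of the 8 members was called in each of 5 mutants. In Y1F it was ght5, higher, where 2.96% of all tested features were called. In Y1F-S7A (7.21% of features called), S2A-S7A (16.5%) and T4A-S7A (2.79%) it was again ght5, higher. In S2A, where 11.9% of features were called, it was ght2, lower. In S7A 0 of 8 members were called (1.71% of features). There 1 of 8 was at an unadjusted p under 0.05 and 1 was called by DESeq2 (4.55% of features), both ght5. In T4A 0 of 8 were called (0.0935% of features), with 1 at an unadjusted p under 0.05 and 0 by DESeq2 (0.972%). The 7 comparisons share the WT libraries. With the replicate number as a block, the same comparisons called 0 members in Y1F (12.6% of features), 3 in S2A (29.4%, adding fbp1 and inv1, both higher), 0 in T4A (1.64%) and 0 in S7A (8.1%). In Y1F-S7A the block fit called 1 (24.9%, ght5), in S2A-S7A 2 (37.9%, ght2 lower and inv1 higher) and in T4A-S7A 1 (10.9%, ght5). A test of any difference among the 8 strains called 3 of 8 members, ght5 (adjusted p = 0.0142), inv1 (0.0168) and ght2 (0.0193), where 22.3% of features were called. The same test with the replicate number as a block called 5, adding fbp1 (0.00471) and ght8 (0.0314), where it called 57.9% of features. Without S2A replicate 1, S7A replicate 1 or S2A replicate 2 the ght2 call in this test was lost (0.059, 0.056 and 0.085), and those of ght5 and inv1 held in 16 of 16. Over the 8 members the median log2 difference from WT ran from -0.10 (T4A) to 0.60 (S2A-S7A), beside medians of all features from -0.01 to 0.01.

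**Figure D1:**
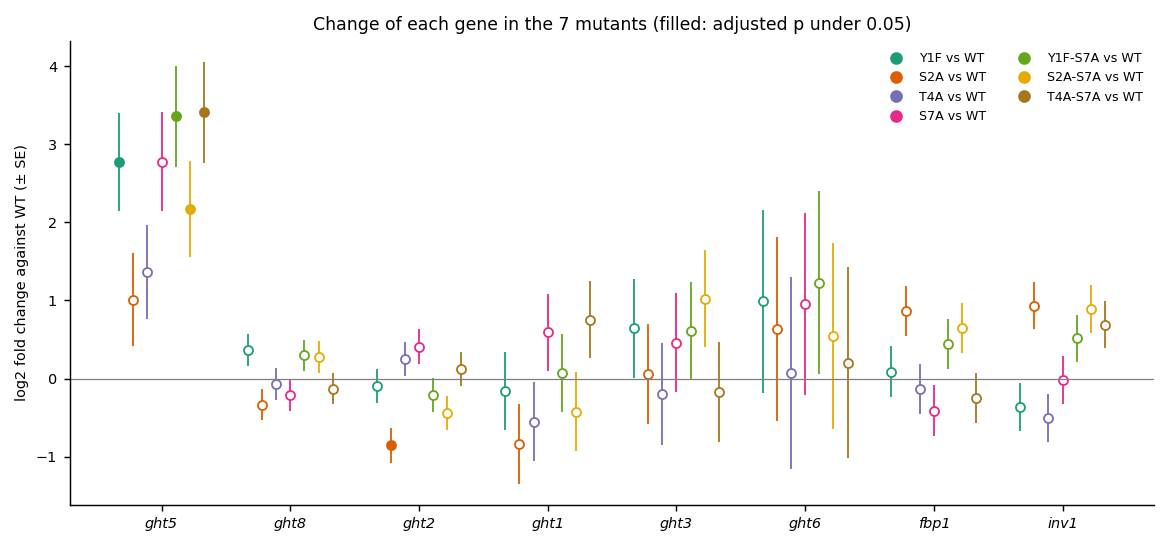
log2 fold change against WT (vertical axis, points with bars of 1 SE) of each of the 8 genes (horizontal axis) in the 7 mutants (colours), filled where the edgeR adjusted p was under 0.05. The 7 points of ght5 lie between 1.01 and 3.41, above zero, and the S2A point of ght2 lies at -0.86.

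ght5 (SPCC1235.14, chromosome III, 212160 to 214376, plus strand), the high-affinity glucose and fructose symporter, had its lowest levels in WT, at 41.0 CPM in replicate 1 and 84.5 CPM in replicate 2. It was at 136 and 116 CPM in S2A and at 187 and 137 CPM in T4A, above WT in each library. In S7A it was at 424 and 438 CPM, and its replicates were close. The Y1F replicates stood far apart at 675 and 180 CPM, as did those of S2A-S7A at 435 and 129 CPM. The highest levels were those of Y1F-S7A (754 and 535 CPM) and T4A-S7A (631 and 704 CPM). All 14 mutant libraries thus lay above both WT libraries. Ordered by strain means the levels ran from WT (62.7 ± 30.7, SD, n = 2) through S2A, T4A, S2A-S7A, Y1F, S7A and Y1F-S7A to T4A-S7A (667 ± 51.6), a 10.6-fold span. The libraries of neighbouring strains in this order did not overlap between WT and S2A, between S2A and T4A and between S7A and Y1F-S7A, and overlapped in the other 4 steps.

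**Figure D2:**
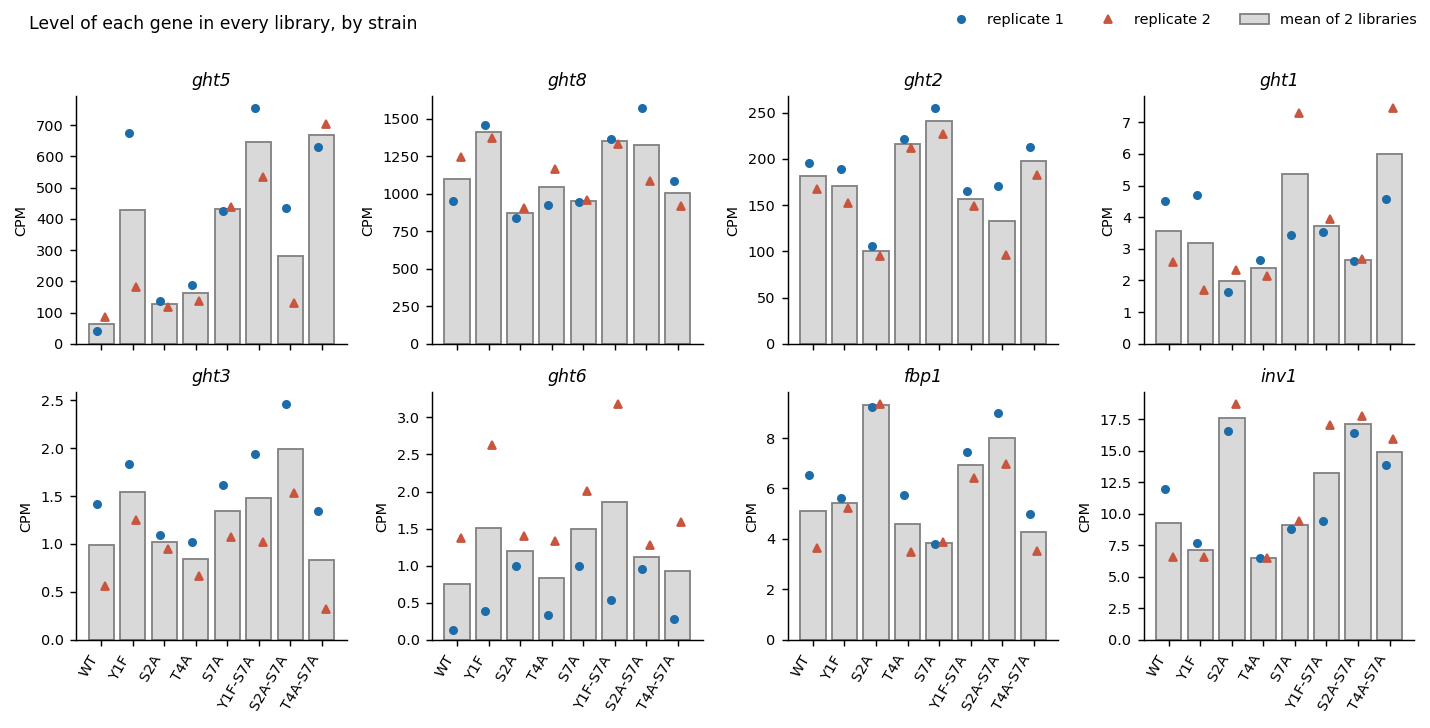
CPM (vertical axis, linear from 0 and scaled per gene) of each of the 8 genes in the 8 strains (horizontal axis), with circles for replicate 1, triangles for replicate 2 and bars for the mean of 2 libraries. In the ght5 panel every mutant library sits above 84.5 CPM, the higher WT value, and in the ght2 panel both S2A libraries sit under both WT libraries.

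The fitted ght5 increases over WT in log2 units were 3.41 ± 0.65 in T4A-S7A (SE, 10.6-fold, adjusted p = 0.0179) and 3.36 ± 0.65 in Y1F-S7A (10.3-fold, adjusted p = 0.00997). They were 2.77 ± 0.63 in Y1F (6.82-fold, adjusted p = 0.0378) and 2.17 ± 0.62 in S2A-S7A (4.50-fold, adjusted p = 0.0325). With the replicate number as a block the adjusted p was 0.0523 in Y1F and 0.0541 in S2A-S7A, so those 2 calls were lost. The S7A change of 2.78 ± 0.63 missed the threshold by edgeR (adjusted p = 0.0508) and passed it by DESeq2 (6.1e-05). T4A and S2A had changes of 1.37 ± 0.60 (adjusted p = 0.617) and 1.01 ± 0.60 (adjusted p = 0.335). In the authors' deposited table the adjusted p-values of ght5 against WT were 1.80e-25 in T4A-S7A, 7.93e-23 in S7A and 2.36e-06 in Y1F-S7A, but 1 in Y1F and 0.623 in S2A-S7A, the 2 strains whose replicates stood far apart.

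Leaving out 1 library lost most of these ght5 calls, and fewer of all tested features were called in those fits too. A lost call is therefore not by itself a sign that the ght5 change rested on that library. Without WT replicate 1 all 4 were lost, with adjusted p-values of 0.23 (Y1F), 0.087 (Y1F-S7A), 0.19 (S2A-S7A) and 0.15 (T4A-S7A). Without WT replicate 2 the Y1F-S7A call held (0.045) and the other 3 were lost, at 0.12 (Y1F), 0.067 (S2A-S7A) and 0.064 (T4A-S7A). Without Y1F replicate 1 the Y1F change was 1.52 (adjusted p = 0.3), and without S2A-S7A replicate 1 the S2A-S7A change was 1.04 (adjusted p = 0.28). Leaving out T4A-S7A replicate 1 or 2 gave 0.057 and 0.077. Over these settings the fitted change ran from 1.52 to 3.43 in Y1F, 2.93 to 3.98 in Y1F-S7A, 1.04 to 2.78 in S2A-S7A and 2.98 to 4.03 in T4A-S7A. The highest of these came without WT replicate 2 in Y1F-S7A and T4A-S7A, and without the strain's own replicate 2 in Y1F and S2A-S7A.

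Whether S7A acts on ght5 differently when joined to another change was asked by comparing double with single mutants. Adding S7A to T4A went with a ght5 difference of 2.04 ± 0.61 (edgeR adjusted p = 0.305, DESeq2 0.0229), with both T4A-S7A libraries far above both T4A libraries. Adding S7A to S2A went with 1.16 ± 0.60 (adjusted p = 0.462) and to Y1F with 0.59 ± 0.59 (adjusted p = 1). Against S7A alone, Y1F-S7A differed by 0.58 ± 0.59 (adjusted p = 0.707), T4A-S7A by 0.63 ± 0.59 (0.766) and S2A-S7A by -0.61 ± 0.59 (0.557). The interaction terms, which ask whether the double mutant departs from the sum of its parts, were -2.19 ± 0.84 for Y1F (adjusted p = 0.725), -1.62 ± 0.84 for S2A (0.653) and -0.74 ± 0.84 for T4A (0.999). With standard errors of this size, edgeR called none of these differences, the largest being 2.04 between strains and -2.19 in an interaction.

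ght8 (SPCC548.06c, chromosome III, 226336 to 230546, minus strand), a hexose transporter gene, was the most strongly expressed of the family and moved little. It was at 953 and 1243 CPM in WT, 1454 and 1373 in Y1F, 840 and 901 in S2A and 926 and 1165 in T4A. In S7A it was at 945 and 955 CPM, and in the double mutants at 1364 and 1330 (Y1F-S7A), 1569 and 1086 (S2A-S7A) and 1087 and 921 (T4A-S7A). The strain means ran from 871 ± 43.3 in S2A to 1413 ± 57.0 in Y1F (SD, n = 2), beside a WT mean of 1098 ± 205. No mutant was called against WT, the fitted differences running from -0.34 ± 0.20 (S2A, adjusted p = 0.344) to 0.36 ± 0.20 (Y1F, adjusted p = 0.47). Adding S7A to S2A went with 0.61 ± 0.20 (edgeR adjusted p = 0.226, DESeq2 0.0495).

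The 300 bases around the RefSeq start of ght8 (250 before to 50 after it) held 3 GC boxes of the type bound by Mig1 in budding yeast, a repressor of the family of Scr1. The letters CCCCGC occurred at positions -85 and -77 and CCCCAC at -66, counted from the gene start. On either strand CCCCGC was present in 1.1% and CCCCAC in 3.23% of the same windows of 5112 protein-coding genes. Among the members, CCCCGC was also present in ght1, at -73. Neither was present in the window of ght5, but RefSeq starts ght5, ght3 and ght6 at the start codon (0 bases before it, against 445 for ght8 and 688 for ght1), so their windows are not placed like those of the other members. The stretches are shown with the boxes in capitals, ght8 from chrIII:228904-228933 and ght1 from chrIII:235251-235280, both minus strand of ASM294v3.
ght8: actCCCCGCaaCCCCGCaagcgCCCCACat
ght1: aatttgcagtatCCCCGCatttggttgagt
The deposited ght8 feature starts upstream of this window, since it spans 4211 bases against 2510 in RefSeq. A match of letters is not a bound site, and no binding was measured here.

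On a per-length scale, the 8 ght genes (the 6 members with ght4 and ght7) made up a pool whose size and make-up differed between some strains. The summed level in RPKM (CPM divided by length in kilobases, here the deposited feature widths) was 340 and 415 in the WT libraries, 643 and 624 in T4A-S7A and 744 and 631 in Y1F-S7A. The S2A pool was the smallest, at 313 and 314 RPKM. The pools of T4A (410 and 438) and S2A-S7A (652 and 365) overlapped that of WT. Within the pool ght5 made up 5.44% and 9.19% in WT, 35.6% and 36.9% in S7A and 44.2% and 50.9% in T4A-S7A. In the same strains ght8 made up 66.6% and 71.2%, 41.8% and 42.3%, and 40.1% and 35.1%. In Y1F (46.7% and 68.0%), S2A (63.8% and 68.2%) and S2A-S7A (57.15% and 70.6%) the ght8 share overlapped that of WT. The ght8 share depends on its length: in T4A-S7A, ght5 (284 and 317 RPKM) exceeded ght8 (258 and 219) by the deposited widths, and ght8 (400 ± 47.0 RPKM, SD, n = 2) exceeded ght5 (323 ± 24.99) by RefSeq lengths.

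**Figure D3:**
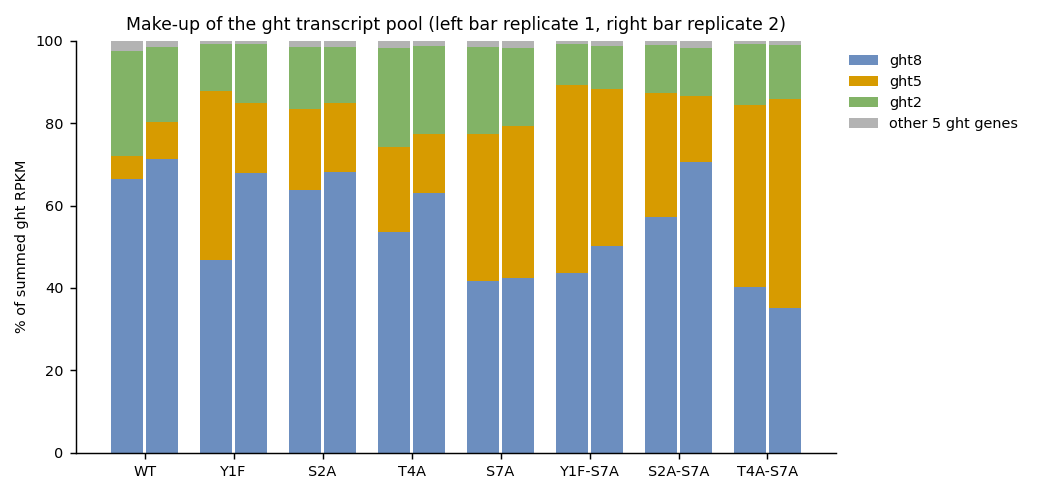
Share of the summed RPKM of the 8 ght genes (vertical axis, percent) taken by ght8, ght5, ght2 and the other 5, in each library of the 8 strains (horizontal axis, left bar replicate 1, right bar replicate 2). The ght5 part grows from 5.44% and 9.19% in WT to 44.2% and 50.9% in T4A-S7A.

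ght2 (SPBC4B4.08, chromosome II, 3427180 to 3429424, plus strand), a glucose and fructose symporter, fell in S2A. It was at 195 and 168 CPM in WT and at 106 and 94.7 CPM in S2A, so the groups did not overlap. It was at 189 and 152 in Y1F, 221 and 211 in T4A and 255 and 227 in S7A, the highest strain. In the double mutants it was at 165 and 149 (Y1F-S7A), 170 and 96.3 (S2A-S7A) and 213 and 183 (T4A-S7A), with the second S2A-S7A library near the S2A level. The change in S2A was -0.86 ± 0.22 (edgeR adjusted p = 0.0254), and leaving out any 1 of the 4 libraries lost the call while the change stayed between -0.96 and -0.74. The adjusted p was then 0.14 and 0.061 on dropping the first or the second WT library, and 0.093 and 0.16 on dropping the first or the second of S2A. In the authors' deposited table it was -1.09 with an adjusted p of 0.00106. Mating type and the S2A change cannot be told apart in that comparison. Between h- strains, S2A-S7A against S7A, the strain highest in ght2, was -0.85 ± 0.22 (adjusted p = 0.0234), and S2A-S7A against WT was -0.45 ± 0.22 (adjusted p = 0.199, and 0.0163 with the replicate block). The comparison with S7A called 2 of 8 members, ght2 and fbp1, where 14.1% of features were called. Without S7A replicate 1, S7A replicate 2 or S2A-S7A replicate 2 the ght2 call there was lost (0.13, 0.07 and 0.12), and without S2A-S7A replicate 1 the change was -1.33 (0.0018) against S7A and -0.92 (0.0104) against WT.

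The window around the RefSeq start of ght2 was the only one of the 8 with the letters TGACGT, the core of the cAMP response element bound by Atf1 and Pcr1, at -133. On either strand, 5.91% of the 5112 windows held these letters. It also held CCAAT, the box bound by the Php complex, at -181, which 42.2% of windows held and which ght8 shared at -154. The letters CCCCTC, to which Rst2 binds in fbp1, were in 0 of the 8 windows and in 2.11% of all, which says only that they are not in these windows. The ght2 window, chrII:3426910-3427209 (plus strand, ASM294v3), is shown with both matches in capitals because ght2 is the member that fell.
ght2: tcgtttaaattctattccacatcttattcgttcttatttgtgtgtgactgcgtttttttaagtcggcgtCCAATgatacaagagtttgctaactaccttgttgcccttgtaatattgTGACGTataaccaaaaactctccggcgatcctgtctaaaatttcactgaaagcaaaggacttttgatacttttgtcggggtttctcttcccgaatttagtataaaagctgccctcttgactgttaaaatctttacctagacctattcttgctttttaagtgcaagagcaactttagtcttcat

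ght1, ght3 and ght6 were close to silent in this medium. ght1 (SPCC548.07c, chromosome III, 232288 to 235289, minus strand), a high-affinity glucose symporter, had 38 to 149 reads per library, from 1.64 CPM in S2A replicate 1 to 7.44 CPM in T4A-S7A replicate 2. All 7 steps in its order of strain means overlapped. ght3 (SPAC1F8.01, chromosome I, 82746 to 84786, plus strand), the gluconate symporter, had 6 to 64 reads and 0.317 to 2.46 CPM. ght6 (SPCC1235.13, chromosome III, 204706 to 206717, plus strand), a glucose and fructose symporter, had 3 to 59 reads and 0.137 to 3.18 CPM. None of the 3 was called in any comparison or interaction by edgeR, with or without the replicate block, or by DESeq2. The standard errors of ght6 against WT were 1.17 to 1.23 log2 units without the block and 0.638 to 0.687 with it. On the per-length scale their means over 16 libraries, 1.20 (ght1), 0.616 (ght3) and 0.603 RPKM (ght6), compare with 269 for ght8, 158 for ght5 and 77.8 for ght2.

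The replicate numbers, which stand for some shared property of same-numbered cultures that the labels do not name, moved several members. In the fit with the number as a block, ght6 was higher in number 2 by 1.71 ± 0.32 (edgeR adjusted p = 0.000605, in 8 of 8 strains). ght3 and ght2 were lower in number 2 by -0.81 ± 0.22 (0.00668) and -0.26 ± 0.07 (0.00622), each in 8 of 8 strains, and fbp1 by -0.33 ± 0.13 (0.0467, in 6 of 8 strains). Of all tested features 50.3% were called between the numbers, and ght1, ght5, ght8 and inv1 were not (adjusted p = 0.949, 0.306, 0.956 and 0.771). The antisense RNA SPNCRNA.1118, which overlaps ght6 and ran at 62.5 to 136 CPM, was likewise higher in number 2 in 8 of 8 strains. The ght6 feature lies inside SPNCRNA.1118 (chromosome III, 204633 to 206912) on the other strand, and in the same libraries SPNCRNA.1118 had 1625 to 2931 reads and ght6 3 to 59, so the reads of the locus were not given alike to both. Whether any antisense reads enter the ght6 count was not tested.

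fbp1 (SPBC1198.14c, chromosome II, 197660 to 199474, minus strand), the gluconeogenic enzyme, stayed low in every strain and was highest in S2A. It was at 6.54 and 3.65 CPM in WT and at 9.25 and 9.34 CPM in S2A, with no overlap. It was at 5.61 and 5.22 in Y1F, 5.72 and 3.49 in T4A and 3.78 and 3.87 in S7A. In the double mutants it was at 7.44 and 6.41 (Y1F-S7A), 8.99 and 6.97 (S2A-S7A) and 4.97 and 3.54 (T4A-S7A), so that both S2A-S7A libraries lay above both WT and both S7A libraries. These levels came from 67 to 271 reads. The S2A difference from WT was 0.87 ± 0.32 (edgeR adjusted p = 0.112), and it passed the threshold with the replicate block (0.016) and by DESeq2 (0.0478). S2A-S7A against S7A was 1.06 ± 0.33, a 2.09-fold rise at an adjusted p that rounds to 0.05 and lies under it, and leaving out any 1 of the 4 libraries lost the call (S7A replicate 1 0.21 and 2 0.2, S2A-S7A replicate 1 0.19 and 2 0.082). Y1F-S7A against S7A was 0.86 ± 0.33 (adjusted p = 0.172, and 0.0346 with the block).

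The strains stood in nearly opposite order for fbp1 and ght2, a pattern picked out after the values were seen. By strain means ght2 rose from S2A through S2A-S7A, Y1F-S7A, Y1F, WT, T4A-S7A and T4A to S7A, and fbp1 from S7A through T4A-S7A, T4A, WT, Y1F, Y1F-S7A and S2A-S7A to S2A. The strain means share depth, scaling and strain, and neighbouring strains overlapped in all but 1 of the 7 steps for ght2 and all but 2 for fbp1.

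**Figure D4:**
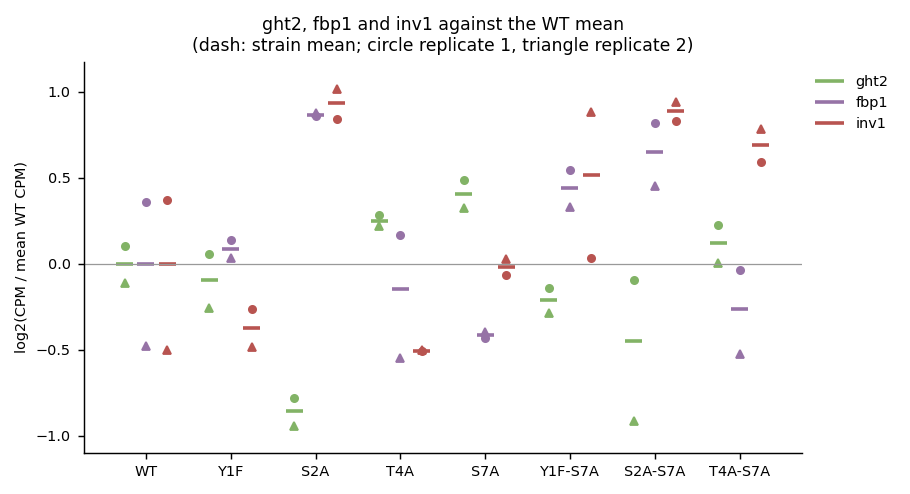
log2 of the CPM over the mean WT CPM (vertical axis) for ght2, fbp1 and inv1 (colours) in the 8 strains (horizontal axis), with dashes for the strain mean, circles for replicate 1 and triangles for replicate 2. In S2A both ght2 libraries lie below zero while both libraries of fbp1 and of inv1 lie above it, and in S7A ght2 is above and fbp1 below.

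The fbp1 locus also gives rise to upstream and antisense transcripts, and their levels were set beside it. Per length, the antisense RNA SPNCRNA.1324 ran at 6.80 to 10.6 RPKM and fbp1 at 1.92 to 5.15 RPKM over the 16 libraries, and SPNCRNA.1324 was called in no mutant against WT. fbp1-ot3, an overlapping transcript of the same strand that shares 66 bases with fbp1, was at 1.65 and 2.79 CPM in WT, 4.27 and 3.84 in S2A and 4.92 and 4.10 in S2A-S7A. Its S2A-S7A difference from WT was 1.02 ± 0.33 (edgeR adjusted p = 0.0533, and 0.0242 with the block). The upstream transcript fbp1-ot2, counted as a feature 1873 bases from fbp1 (chromosome II, 201348 to 201812), had 0 to 9 reads per library. It had 0 in both WT libraries, which at this depth does not show absence. Whether the change of fbp1-ot3 enters the fbp1 count was not tested.

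inv1 (SPCC191.11, chromosome III, 1723393 to 1726164, plus strand), the secreted invertase, was highest in S2A, S2A-S7A and T4A-S7A. It was at 11.9 and 6.53 CPM in WT, 16.6 and 18.7 in S2A, 16.4 and 17.7 in S2A-S7A and 13.9 and 15.9 in T4A-S7A. All 6 of these mutant libraries lay above both WT libraries, as did Y1F-S7A replicate 2 (17.0, against 9.44 in replicate 1). It was at 7.69 and 6.60 in Y1F, 6.51 and 6.51 in T4A and 8.81 and 9.41 in S7A. Against WT the differences were 0.93 ± 0.30 in S2A (edgeR adjusted p = 0.0707, with the block 0.0245, DESeq2 0.0225) and 0.89 ± 0.30 in S2A-S7A (0.0684, with the block 0.0249, DESeq2 0.0242). Without WT replicate 1 both passed the threshold, each at 0.028, and without WT replicate 2 they were at 0.37 and 0.38. In T4A-S7A it was 0.69 ± 0.30 (adjusted p = 0.334). Adding S7A to T4A went with 1.19 ± 0.31 (edgeR adjusted p = 0.19, with the block 0.0454, DESeq2 0.0186). S7A alone differed from WT by -0.02 ± 0.30 and T4A alone by -0.50 ± 0.31. The interaction of T4A and S7A was 1.21 ± 0.43 and was called in none of these fits (edgeR adjusted p = 0.748, with the block 0.221, DESeq2 0.387). SPNCRNA.1224, which shares 67 bases with inv1 on the same strand, had 6 to 87 reads per library and differed by 1.35 ± 0.48 in S2A (adjusted p = 0.0985).

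Among the comparisons of double with single mutants, 1 called any member by edgeR (S2A-S7A against S7A, above). The other 5 called 0 of 8, beside 0.0156% of features for Y1F-S7A against Y1F, 0.483% for S2A-S7A against S2A, 0.187% for T4A-S7A against T4A, 5.06% for Y1F-S7A against S7A and 1.29% for T4A-S7A against S7A. At an unadjusted p under 0.05 they had 1, 1, 3, 3 and 1 members. DESeq2 called 0 (0.961% of features), 1 (ght8, 3.84%), 2 (ght5 and inv1, 1.63%), 0 (9.73%) and 0 (4.67%). With the block the counts were 0 (1.36% of features called), 0 (10.6%), 1 (inv1, 2.51%), 2 (fbp1 higher and ght2 lower, 19.7%) and 0 (9.33%), and S2A-S7A against S7A had 3 (ght2, fbp1 and inv1, 33.4%). The 3 interactions (Y1F, S2A and T4A, in this order below) called 0 of 8 members each, by edgeR with or without the block and by DESeq2. The shares of features called were 0%, 0.483% and 0.0156% by edgeR, 1.15%, 3.64% and 0.374% with the block and 0.898%, 2.41% and 0.545% by DESeq2. At an unadjusted p under 0.05 they had 1 member each by edgeR, 2, 1 and 2 with the block and 2, 2 and 1 by DESeq2.

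Next to ght5, the upstream gene SPCC1235.18 followed it across the strains. SPCC1235.18 (chromosome III, 209921 to 211648, plus strand), whose product RefSeq calls uncharacterized, ends 511 bases before ght5. On the minus strand SPCC1235.17 (207225 to 211270) overlaps it. In its RefSeq gene of 840 bases, shorter than the deposited feature, 0 of 791 50-base words occur elsewhere in the genome. The deposited feature was not searched beyond that gene. SPCC1235.18 was at 0.640 and 1.63 CPM in WT, 17.1 and 9.48 in Y1F-S7A and 15.9 and 13.1 in T4A-S7A. It was at 5.32 and 1.35 CPM in S2A, 3.82 and 1.69 in T4A and 10.2 and 6.52 in S7A. In Y1F it was at 12.1 and 2.59 CPM and in S2A-S7A at 8.96 and 2.37, high in replicate 1 and low in replicate 2 as ght5 was. Of the mutant libraries 13 of 14 lay above both WT libraries, the exception being S2A replicate 2. It rose in Y1F-S7A by 3.54 ± 0.92 (edgeR adjusted p = 0.0406) and differed by 3.67 ± 0.92 in T4A-S7A (0.063, and 0.00761 with the block). In S7A, Y1F and S2A-S7A the differences were 2.87 ± 0.91, 2.67 ± 0.91 and 2.32 ± 0.90 (adjusted p = 0.177, 0.167 and 0.106), and with the block they were called (0.0315, 0.0474 and 0.0385). Over the 16 libraries its Pearson r of log2 CPM with ght5 was 0.959, a description of libraries that share strain, depth and position on the chromosome. On the other side of ght5, the diacylglycerol acyltransferase gene dga1 differed from WT by -0.05 to 0.20 log2 units and was called in no mutant.

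**Figure D5:**
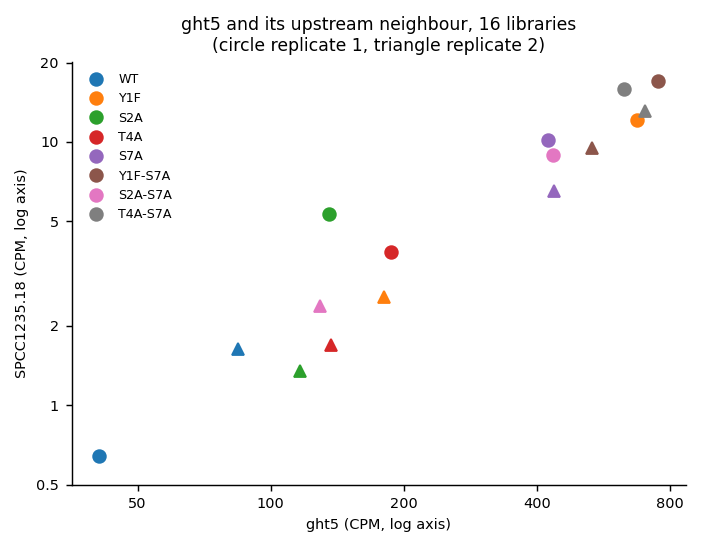
CPM of SPCC1235.18 (vertical log axis) against CPM of ght5 (horizontal log axis), 1 point per library, coloured by strain, with circles for replicate 1 and triangles for replicate 2. The points rise together from WT at the lower left (41.0 and 0.640 CPM in replicate 1) to Y1F-S7A replicate 1 at the upper right (754 and 17.1 CPM).

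Neighbours of other members moved as well. SPNCRNA.1120, a non-coding RNA between ght8 and ght1, had 4 and 8 reads in WT, 40 and 44 in Y1F, 52 and 25 in S7A, 109 and 55 in Y1F-S7A and 26 and 39 in S2A-S7A. It rose in those 4 mutants, by 2.85 ± 0.56 (edgeR adjusted p = 0.0213), 2.55 ± 0.56 (0.046), 3.58 ± 0.56 (0.00333) and 2.43 ± 0.57 (0.0138). ght8, whose deposited end lies 53 bases away, was called in none of them. SPCC1529.01, next to ght1, fell in S2A by -1.09 ± 0.23 (0.00839), from 33.6 and 42.1 CPM in WT to 14.3 and 21.3. shu1, the gene of a heme-binding cell-surface protein next to ght3, had 4 and 0 reads in WT, 314 and 93 in Y1F, 447 and 114 in Y1F-S7A and 308 and 305 in S2A-S7A, and was called in those 3 (adjusted p = 0.00602, 0.00315 and 0.000885), while ght3 stayed at 13 to 64 reads in the same libraries.

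Calls were also counted for 43 genes that sense glucose, repress or activate these genes, act on Ght5 or use other carbon sources. Against WT 2 were called in Y1F (2.96% of all features), 3 in S2A (11.9%), 2 in Y1F-S7A (7.21%) and 3 in S2A-S7A (16.5%). In T4A, S7A and T4A-S7A 0 were called (0.0935%, 1.71% and 2.79%). With the block the counts, in the same order, were 4 (12.6%), 11 (29.4%), 7 (24.9%), 12 (37.9%), 0 (1.64%), 1 (8.1%) and 5 (10.9%). No test of the lists was run. In T4A, S7A and T4A-S7A the genes at an unadjusted p under 0.05 numbered 2, 3 and 8 (492, 776 and 894 of the 6420 tested features). DESeq2 called 0, 0 and 2 there (0.972%, 4.55% and 5.68% of features). The hexose transporter gene ght4 fell in Y1F by -1.48 ± 0.26 (edgeR adjusted p = 0.0128), from 21.2 and 16.9 CPM to 7.73 and 5.93, and in S2A by -0.93 ± 0.25 (0.0339). atf1, encoding the stress-activated transcription factor of fbp1, rose in Y1F by 0.67 ± 0.14 (0.0259), in Y1F-S7A by 0.61 ± 0.14 (0.0234) and in S2A-S7A by 0.61 ± 0.14 (0.0127). The gene of its upstream kinase, sty1, fell in S2A by -0.44 ± 0.13 (0.0402) and in S2A-S7A by -0.53 ± 0.13 (0.0142). git3, encoding the glucose receptor, fell in S2A by -0.50 ± 0.14 (0.0399), and bit61, encoding a subunit of the TORC2 kinase complex, fell in Y1F-S7A by -0.42 ± 0.11 (0.0382) and in S2A-S7A by -0.36 ± 0.11 (0.0412). The medians of the 7 lists lay between -0.74 (glycerol, dihydroxyacetone and maltose use in T4A-S7A, 5 genes) and 0.45 (hexose phosphorylation in T4A-S7A, 2 genes), beside medians of all features from -0.01 to 0.01. These extremes rest on few genes, none of which was called in T4A-S7A by edgeR without the block.

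scr1, encoding the repressor itself, was named after its values were seen. It was at 35.0 and 55.9 CPM in WT and at 15.2 and 24.9 CPM in S2A, with no overlap. The difference was -1.18 ± 0.39 (edgeR adjusted p = 0.0741, DESeq2 0.0242, and 0.000607 with the block). In S7A scr1 differed from WT by 0.33 ± 0.38 (edgeR adjusted p = 0.886). Its values in the other mutants are not given here. Whether the level of scr1 bears on any member was not tested.

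Searching 5163 features with an average of at least 3 log2 CPM for the profile most like that of each member, by Pearson r of log2 CPM over the 16 libraries, gave plb1, a lysophospholipase gene (0.902), idn1, a gluconokinase gene (0.81), and the non-coding SPNCRNA.1115 (0.807) for ght5. For ght2 they were ubp3, a ubiquitin protease gene (0.943), fil1, a transcription factor gene (0.934), and ckn1 (0.924). For fbp1 they were fcp1, the gene of a CTD phosphatase (0.89), rad54, a recombination gene (0.885), and mug170 (0.883), and for inv1 SPNCRNA.795 (0.88), tam12 (0.853) and SPNCRNA.1520 (0.852). For ght8 they were pre10, a proteasome subunit gene (0.803), SPAC4A8.02c (0.791) and dsc1 (0.755). The low members had prp10 (0.901), SPNCRNA.242 (0.875) and bch1 (0.864) for ght3, spd1 (0.886), sed5 (0.875) and glo3 (0.862) for ght6, and SPCC191.06 (0.765), SPCC736.13 (0.741) and mgs1 (0.723) for ght1. These are the highest of many values from libraries that share strains, replicate numbers and depth, and are given as descriptions. SPCC1235.18 averaged under the minimum and was not among the features searched.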

How the data were processed

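Raw read counts per feature were deposited by the authors for 16 libraries, together with the authors' log2 RPKM and the authors' table of log2 fold changes with adjusted p-values. The submitters' processing notes name Bowtie 0.12.7 as a tool. The build, annotation version, read length, counting tool and handling of reads that fit several places are not given in the sources used here. Paired-end, stranded libraries were sequenced on an Illumina HiSeq instrument, per the labels' protocols. Of 7022 features, 6844 were named by locus tag and 23 by synonym in RefSeq ASM294v3, where 99.3% of those matched by locus tag shared a start or end with it.

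Counts were tested with edgeR 4.0.16 in R 4.3.3 (filterByExpr, leaving 6420 features, TMM factors of 0.911 to 1.15, robust quasi-likelihood fit, 1 coefficient per strain, 8 residual degrees of freedom), with Benjamini-Hochberg adjustment over all tested features. CPM used TMM-scaled library sizes, and RPKM the deposited widths. A difference is called at an adjusted p under 0.05. The procedure was tested on simulated data. Members and lists were chosen with earlier results of these data known. Named were all members, in each list and mutant the called genes (at most 3, by adjusted p), the 3 features most like each member and the neighbours. The labels call the replicates biological but do not say how cultures were paired. Same-numbered libraries deviated together from their strain means (correlations across features, which are not independent replicates, of 0.245 to 0.667 in 28 of 28 pairs of strains), so the numbers were taken to pair them and the replicate block was added in a further fit. Other alternatives were RLE factors, no low-count filter, the compared libraries alone, DESeq2 1.42.0 and fits that drop 1 library at a time.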

Additional observations from a re-analysis of the deposited data

How the results depend on the processing

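With 2 libraries a strain, counting error was small for ght5, ght8 and ght2, and their errors come mostly from the spread between libraries. For ght2 part of this spread went with the replicate number. Its standard error in S2A against WT was 0.221 without the block and 0.139 with it. ght1, ght3 and ght6 had few reads. For ght3, ght6 and fbp1 the errors were also smaller with the replicate block. The cause of the changes below was not tested, beyond the fewer libraries in some settings.

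With the replicate number as a block, members called against WT numbered 0 in Y1F, 3 in S2A and 2 in S2A-S7A, and 1 for T4A-S7A against T4A, 2 for Y1F-S7A against S7A and 5 for any strain. The block gave 1 list gene in S7A, 4 in Y1F, 11 in S2A, 5 in T4A-S7A, 7 in Y1F-S7A and 12 in S2A-S7A. It changed no other count of calls by over 1.5 times. DESeq2 called 3 members in S2A (16% of features), 1 in S7A (4.55%) and 2 in S2A-S7A (21.7%). It called 1 for S2A-S7A against S2A (3.84%), 2 for T4A-S7A against T4A (1.63%) and 5 for any strain (35.8%). It also called 6 list genes in S2A and 2 in T4A-S7A (5.68%). With RLE factors or with no low-count filter 1 member, ght5, was called in S7A (1.73% and 1.59% of features). Without the filter 1 was called for S2A-S7A against S7A (13%). With the compared libraries alone 0 members were called in Y1F (0.319%), in S2A-S7A (5.29%) and for S2A-S7A against S7A (6.76%). The same setting called 0 list genes in Y1F, S2A (8.66%), Y1F-S7A (2.87%) and S2A-S7A.

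Leaving out each library in turn, members called ranged from 0 to 1 in Y1F, S2A, Y1F-S7A, S2A-S7A and for S2A-S7A against S7A, stayed at 0 in T4A-S7A, and ranged from 2 to 4 for any strain. A strain left with 1 library is assumed to vary like the others. Fewer of all features were also called in each of these comparisons when a library was left out. Lost calls were thus not particular to the members. No called difference between strains changed sign. Some that were not called did, among them ght5 in Y1F-S7A against Y1F (-0.07 to 1.84) and inv1 in S7A against WT (-0.39 to 0.48). Libraries were not left out for the list genes and neighbours, and the block and the compared libraries alone were not run where they do not apply.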
